A study of Mus musculus with 10 samples.

Results

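The 9 genes described here encode the contractile apparatus of smooth muscle: Acta2, Actg2, Tagln, Cnn1, Smtn, Myl9, Mylk, Myh11 and Des. They were chosen by symbol out of 18193 mouse genes that had a probe set of their own on the Affymetrix Mouse430_2 array, with earlier results of these data known. The 9 genes had 15 probe sets, and 1 of them stood for each gene, namely that of highest mean log2(signal + 16) over the 10 arrays. RNA of mouse embryonic testis was hybridised of 5 embryonic stages, 2 arrays per stage, to follow gene expression over fetal testis development. The stages, named by embryonic day, were E11.5 and E12.5, then E14.5, and later E16.5 and E18.5. The arrays of a stage were made from separate testis preparations, according to the series' design. The labels give no strain, genotype or treatment and no number of embryos in a preparation. Only 6 of the 9 genes lay above the filter on low values, at a mean log2 of 6.024 (a signal of 49.1), and were tested. Myh11, at a mean log2 of 6.28, lay just inside the filter and passed through its later arrays, and Actg2, at 5.94, lay just outside together with Des (5.42) and Cnn1 (5.21).

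In the fetal testis, Sertoli cells and the germ cells they enclose form cords, and each cord becomes wrapped by flat peritubular myoid cells that share many proteins with smooth muscle. Smooth muscle contracts when calcium and calmodulin switch on myosin light chain kinase, which phosphorylates the regulatory light chain of myosin so that myosin filaments pull on actin. Many genes of this apparatus are driven by serum response factor with its coactivators of the myocardin family, which bind a short element called the CArG box. The same genes are used by the smooth muscle of blood vessels and of the genital ducts, and some of them by other stromal cells. In RNA of a tissue with several cell types, fewer cells of a type and less RNA per cell cannot be told apart.

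The 250 bases upstream of the gene start were available from RefSeq (build GRCm38.p6) for 6 of the 9 genes: Acta2, Myl9, Mylk, Cnn1, Des and Smtn. Those of Acta2 and Myl9 are shown because they were the windows with a CArG box, and because these genes moved in opposite directions in the first step of the time course and together in the next. Capitals mark CArG boxes, taken as CC, then 6 bases, then GG, with at most 1 G or C among the 6 middle bases; a box reads as such a box on both strands, and no boxes overlapped. The Acta2 window is chr19:34255374-34255623 on the minus strand, and the Myl9 window is chr2:156775214-156775463 on the plus strand, both printed 5′ to 3′ along the gene.
Acta2: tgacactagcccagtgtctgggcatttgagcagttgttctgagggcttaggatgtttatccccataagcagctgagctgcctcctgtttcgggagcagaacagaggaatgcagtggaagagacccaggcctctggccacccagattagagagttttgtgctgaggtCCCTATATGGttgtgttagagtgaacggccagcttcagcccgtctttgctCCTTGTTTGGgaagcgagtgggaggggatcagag
Myl9: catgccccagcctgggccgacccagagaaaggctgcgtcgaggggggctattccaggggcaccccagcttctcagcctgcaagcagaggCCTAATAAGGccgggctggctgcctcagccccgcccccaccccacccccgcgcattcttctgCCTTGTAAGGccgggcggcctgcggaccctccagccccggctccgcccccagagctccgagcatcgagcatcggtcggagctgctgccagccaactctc

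The Acta2 boxes began 84 and 34 bases before the gene start and each had 1 G or C in the middle. Those of Myl9 began at 161 and 99 bases, and the first of them had A or T at all 6 middle positions. With the looser form, 2 of the 6 windows held a box (33.3%), against 8.59% of the 32851 windows of the same length in the RefSeq table. With A or T required throughout, 1 of 6 held one (16.7%), against 1.47% of all windows. The windows of Mylk, Cnn1, Des and Smtn held no box by either form, which says only that these letters were not in these windows.

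Signals are linear and relative to each array's overall level, so they are compared between arrays for one probe set and not between genes. Array medians lay between 35.2 and 57.7. Replicates correlated with r between 0.9626 and 0.9799 over the 10916 tested genes. Each neighbouring pair of stages was scanned on different days, so scanning day and stage cannot be told apart in single steps, but E12.5 and E16.5 shared a day, as did E11.5 and E18.5. Arrays of E11.5 to E14.5 went through fluidics modules 1 and 2 and those of E16.5 and E18.5 through modules 3 and 4, so these same-day comparisons cannot be told apart from module. The 3′ to 5′ signal ratio of beta-actin, a measure of RNA integrity, was 1.57 to 2.03 at E11.5 and E12.5 and 1.64 and 2.5 at E14.5. At the later stages it was 1.87 to 2.62. The same ratio of Gapdh was 0.774 to 0.936 on all arrays. The part of these ratios in the results was not tested. Markers of testis cell types were examined for change over the 5 stages (limma, moderated F test). Of the Sertoli cell genes 7 of 8 changed, of the fetal Leydig cell genes 5 of 5 and of the germ cell genes 6 of 6. Of the endothelial genes 3 of 5 changed, and the share over all tested genes was 34.7%. The F test counts a fall like a rise, so it does not check which tissue was taken. Those with the smallest p were Cst9, Dhh, Ptgds and Wt1; Cyp11a1, Hsd3b1, Cyp17a1 and Star; Mael, Dppa3, Dazl and Ddx4; and Emcn, Cdh5 and Kdr. Of these, Wt1, Dppa3 and Emcn fell from E11.5 to E18.5, with log2 changes of -1.86, -3.06 and -0.89. Kdr did not pass in that comparison, and the others rose.

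Acta2, Tagln, Mylk and Myh11 rose over the period. By E14.5 they had gained log2 changes of 3.10, 2.74, 2.12 and 2.17 out of 3.10, 2.94, 2.61 and 3.21 at E18.5, on the log2(signal + 16) scale; in linear signal Myh11 went from a mean of 92.05 at E14.5 to 206.55 at E18.5. Myl9 fell between E11.5 and E12.5 and rose again to E14.5, while Smtn did not pass any test on its main values. Of the 6 genes tested, 5 changed over the 5 stages (moderated F test with Benjamini-Hochberg adjustment, adjusted p from 5.9e-08 for Acta2 to 0.000483 for Myl9). Smtn had an adjusted p of 0.154. The filter favoured genes with high late levels, so these counts describe the 6 genes and not all 9. In the other lists described below, it likewise favoured rises, and so the counts of rises. This holds for genes that began below its level, among them Pdlim3, Agtr2, Hhip and Osr1.

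**Figure D1:**
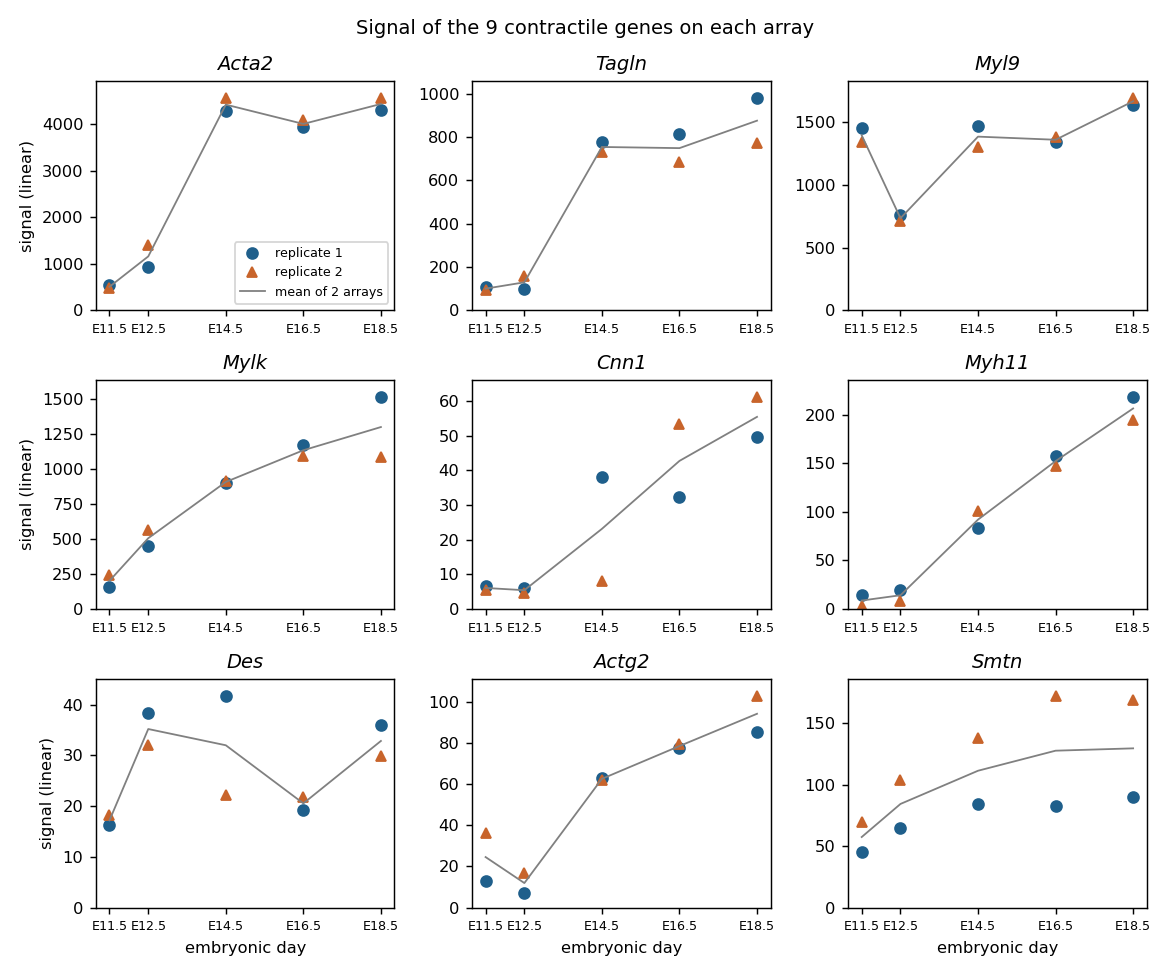
Linear signal (vertical axis, from 0, own scale for each gene) of the representative probe set of each of the 9 genes at each embryonic day (horizontal axis); circles and triangles are the arrays of replicate 1 and 2, and the line joins the means of 2 arrays. Acta2 goes from 468.4 and 539.6 for E11.5 to at least 3935.0 from E14.5 onward, Myl9 dips at E12.5, and the Smtn triangles lie above its circles at every stage.

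Acta2 encodes smooth muscle alpha-actin, the actin of the contractile filaments and the usual marker of peritubular myoid cells. Its signal was 539.6 and 468.4 on the arrays of E11.5, 919.8 and 1394.9 for E12.5, 4282.1 and 4566.7 for E14.5, 3935.0 and 4082.7 for E16.5, and 4317.0 and 4560.0 for E18.5. The arrays of E11.5, E12.5 and the later stages formed 3 levels without overlap. Acta2 rose 2.21-fold from E11.5 to E12.5 (log2 1.15, SE 0.19, limma adjusted p 0.00339) and 3.86-fold from E12.5 to E14.5 (log2 1.95, SE 0.19, adjusted p 4.98e-05). After E14.5 its log2 changes were -0.14 to E16.5 and 0.15 to E18.5 (SE 0.19 each), and neither passed. The probe set, 1416454_s_at, carries the Affymetrix suffix for probes that can match transcripts of more than 1 gene, so signal from related actins cannot be told apart from Acta2. The other Acta2 probe sets gave signals of 2.1 to 28.4 on all arrays, and averaging all of them reduced the first step to a log2 of 0.53.

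Actg2 encodes smooth muscle gamma-actin, the actin typical of visceral smooth muscle. Its signal was 12.8 and 36.3 for E11.5, 6.9 and 17.0 for E12.5, 63.0 and 62.0 for E14.5, 77.4 and 79.4 for E16.5, and 85.2 and 102.9 for E18.5. The arrays of E11.5 and E12.5 overlapped, and every array from E14.5 onward lay above both. Actg2 was below the filter. With no filter it rose by a log2 of 1.51 from E12.5 to E14.5 (SE 0.31, limma adjusted p 0.0319) and by 1.5 from E11.5 to E18.5 (SE 0.31, adjusted p 0.00692).

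Tagln encodes transgelin (SM22-alpha), a calponin-family protein that binds actin filaments and is an early marker of smooth muscle differentiation. Its signal was 106.0 and 93.2 for E11.5, 99.8 and 157.9 for E12.5, 779.4 and 730.4 for E14.5, 814.0 and 685.1 for E16.5, and 981.4 and 771.8 for E18.5. The first 2 stages overlapped, as did the last 3, and there was a gap between these groups. Tagln rose in the step across that gap, 5.43-fold from E12.5 to E14.5 (log2 2.44, SE 0.21, limma adjusted p 1.74e-05). The changes in the steps before and after it were 0.30, -0.01 and 0.22 on the log2 scale and did not pass.

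Mylk encodes myosin light chain kinase, the calcium- and calmodulin-dependent switch of smooth muscle contraction; the gene also gives a longer kinase of non-muscle cells and the short protein telokin. Its signal was 159.5 and 242.2 for E11.5, 447.5 and 563.9 for E12.5, 901.4 and 914.1 for E14.5, 1175.0 and 1093.9 for E16.5, and 1516.8 and 1083.9 for E18.5. The stages did not overlap up to E16.5. Mylk had its largest rise in the first step, 2.44-fold from E11.5 to E12.5 (log2 1.28, SE 0.22, limma adjusted p 0.00376), and rose a further 1.78-fold to E14.5 (log2 0.83, SE 0.22, adjusted p 0.0401). The second call was close to the threshold and was lost in 7 of 20 alternatives, among them those without either array of E12.5, E14.5 or E16.5 (log2 0.67 to 0.99). The other probe sets had higher late signals too. The probe set 1425505_at measured 52.1 and 55.8 for E11.5, 107.9 and 172.4 for E12.5, 253.3 and 361.7 for E14.5, and 620.7 to 756.2 on the 4 later arrays, a log2 change of 1.14 from E14.5 to E16.5. In that step the representative probe set changed by 0.32 and the third, 1425504_at, whose signals were 2.7 to 106.4, by -0.42, so the probe sets disagree after E14.5.

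Myl9 encodes the regulatory light chain of smooth muscle myosin, the substrate of that kinase, and is also expressed in many non-muscle cells. Its signal was 1453.3 and 1342.1 for E11.5, 756.9 and 712.7 for E12.5, 1472.2 and 1301.8 for E14.5, 1340.9 and 1383.1 for E16.5, and 1643.2 and 1695.7 for E18.5. Both arrays of E12.5 lay below all the others, and the arrays of E11.5, E14.5 and E16.5 overlapped. Myl9 fell by 0.91 on the log2 scale in the first step (SE 0.15, limma adjusted p 0.00395) and rose by 0.90 in the next (SE 0.15, adjusted p 0.00402). E14.5 against E11.5 gave a log2 of -0.01 (SE 0.15, adjusted p 0.965). The dip was of like size in both fluidics modules that washed these arrays, with first-step changes of -0.93 and -0.90. E16.5 against E12.5, which shared a scanning day, gave a log2 of 0.88 (adjusted p 0.00106).

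Myh11 encodes the smooth muscle myosin heavy chain, the motor protein most restricted to mature smooth muscle. Its signal was 14.3 and 3.0 for E11.5, 19.8 and 8.4 for E12.5, 83.4 and 100.7 for E14.5, 157.4 and 147.2 for E16.5, and 218.6 and 194.5 for E18.5. The first 2 stages overlapped, and from E12.5 onward each stage lay above the one before. Myh11 rose 3.64-fold from E12.5 to E14.5 (log2 1.87, SE 0.27, limma adjusted p 0.000998), and over the whole period 9.26-fold (log2 3.21), a size that the added 16 makes too small for a gene of low signal. It was the one tested gene of the 6 whose rise from E14.5 to E18.5 passed the threshold (2.06-fold, log2 1.04, SE 0.27, limma adjusted p 0.0245). Myh11 passed the filter on low values through its later arrays, which favoured the rises above and this late call. That call was lost in 5 of 17 alternatives: with a pseudocount of 1, with no filter, and without E14.5 replicate 1, E18.5 replicate 1 or E18.5 replicate 2, where the log2 was 0.93, 0.97 and 1.12. A second Myh11 probe set, 1418122_at, gave signals of 1.5 to 8.8 on all arrays. Mylk had a log2 change of 0.49 from E14.5 to E18.5 (SE 0.22, limma adjusted p 0.171), with its E18.5 arrays above those of E14.5.

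Cnn1 encodes calponin 1, an actin-binding brake on myosin that marks late smooth muscle differentiation. Its signal was 6.7 and 5.4 for E11.5, 6.1 and 4.7 for E12.5, 38.2 and 8.0 for E14.5, 32.2 and 53.2 for E16.5, and 49.6 and 61.2 for E18.5. All 6 later arrays lay above the 4 early ones, but the replicates of E14.5 disagreed, and replicate 2 lay close to the early level. Cnn1 was below the filter, and with no filter it rose by a log2 of 1.69 from E11.5 to E18.5 (SE 0.35, limma adjusted p 0.00706), while no single step passed.

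Smtn encodes smoothelin, a cytoskeletal protein of contractile smooth muscle. Its signal was 44.9 and 70.0 for E11.5, 64.8 and 103.9 for E12.5, 84.5 and 138.2 for E14.5, 82.8 and 172.5 for E16.5, and 89.9 and 169.2 for E18.5. Replicate 2 lay above replicate 1 at 5 of 5 stages, by a log2 of 0.50 to 0.93, so neighbouring stages overlapped throughout. E18.5 against E11.5 gave a log2 of 0.95 (SE 0.35, limma adjusted p 0.0556), which did not pass. It passed in 6 of 18 alternatives, whose adjusted p ranged from 0.00161 to 0.384. The replicates of a stage went through different fluidics modules, and up to E14.5 replicate 1 used module 1 and replicate 2 used module 2. With module as a block, E14.5 against E11.5 gave a log2 of 0.78 with an adjusted p of 0.0279, where the value without the block was 0.155 and the 19 alternatives ranged from 0.0106 to 0.52.

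Des encodes desmin, the intermediate filament protein of muscle. Its signal was 16.2 and 18.2 for E11.5, 38.4 and 32.0 for E12.5, 41.8 and 22.2 for E14.5, 19.3 and 21.8 for E16.5, and 35.9 and 29.8 for E18.5. No steady direction was seen, and with no filter no comparison passed (F test adjusted p 0.242). The other probe set, 1426731_at, measured 6.9 to 14.4 up to E14.5, and 21.0 and 56.8 for E16.5 and 41.0 and 60.4 for E18.5, a later rise that the representative probe set did not show.

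The order of the rises was described by a midpoint day. This is the embryonic day at which the stage means of log2(signal + 16), joined by straight lines, last crossed the level midway between the highest mean and the lowest mean before it. Mylk came first at day 12.55 (12.40 to 12.88 when each array was left out in turn), followed by Acta2 at 12.91 (12.63 to 13.12). Tagln followed at 13.46 (13.32 to 13.57). Myl9, counted from its dip, reached its midpoint at 13.80 (13.68 to 13.94), Actg2 at 13.82 (13.74 to 13.90) and Myh11 at 13.90 (13.72 to 14.06). Cnn1 came last at 14.83 (13.79 to 15.61). The ranges of Mylk and Acta2 overlapped, as did those of Myl9, Actg2, Myh11 and Cnn1, while that of Tagln overlapped neither neighbour. The standard error of the midpoint (jackknife within stages) was 0.38 days for Mylk, 0.25 for Acta2 and 0.15 for Tagln. Without _x_at and _s_at probe sets, Acta2 was measured by a dim probe set with a midpoint of 13.49, after that of Tagln, so the order of Acta2 and Tagln is not settled. The midpoint of the Mylk probe set 1425505_at alone was not computed. That probe set rose by log2 changes of 1.13, 1.06 and 1.14 in the first 3 steps, where the representative one had 1.28, 0.83 and 0.32. The first place of Mylk is therefore not settled either. The midpoint of Myh11 was 13.62 with a pseudocount of 1 and 14.19 with 64, and its place beside Myl9 and Actg2 is therefore not settled. Smtn at 12.69 (12.15 to 16.61) and Des at 12.00 (12.00 to 17.23) could not be placed.

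**Figure D2:**
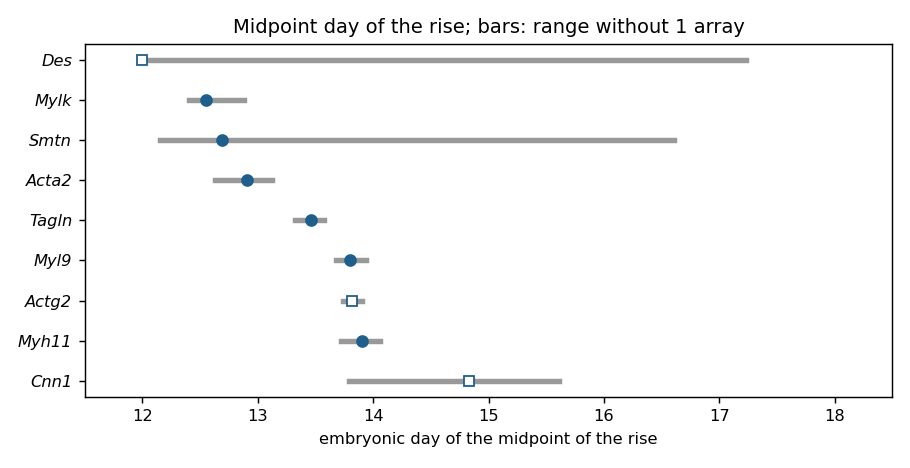
Embryonic day of the midpoint of the rise (horizontal axis) for each gene; filled circles are the 6 tested genes, open squares the 3 below the filter, and grey bars the range when each array was left out. On the representative probe sets Mylk (12.55) and Acta2 (12.91) precede Tagln (13.46) and Myh11 (13.90), and the bars of Smtn and Des span more than 4 days.

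Within each gene, a test asked whether its change from E14.5 to E18.5 differed from that from E11.5 to E14.5. These spans differ in length, and the test does not compare the order of genes. The later change was smaller for Acta2 by a log2 of -3.09 (SE 0.33, limma adjusted p 0.000182), for Tagln by -2.54 (SE 0.36, adjusted p 0.00119) and for Mylk by -1.63 (SE 0.37, adjusted p 0.0223). Thus 3 of the 6 tested genes had their rise weighted to the first part of the period. A value below 0 passed for 2.8% of all tested genes, which include genes that rose and then fell, such as Actc1. Another 2.81% passed with a value above 0, among them 0 of the 6. For Mylk the call was lost in 4 of 19 alternatives, when its probe sets were averaged and without E14.5 replicate 1, E14.5 replicate 2 or E18.5 replicate 2 (log2 -1.65 to -1.39). Myh11, at -1.12 (SE 0.46, adjusted p 0.188), did not pass, and neither did Myl9 at 0.28 or Smtn at -0.61. Differences between genes in this quantity were not tested.

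**Figure D3:**
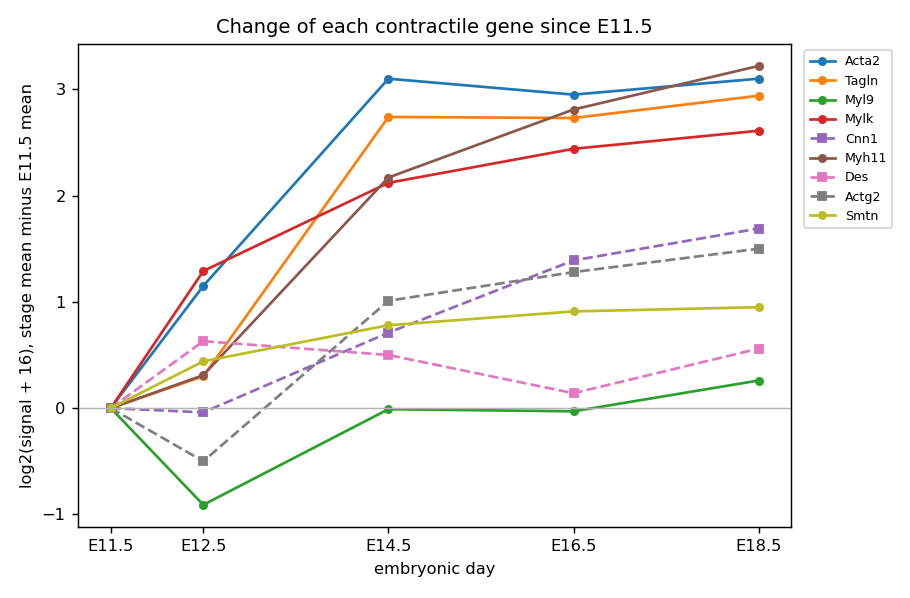
Stage mean of log2(signal + 16) minus the E11.5 mean (vertical axis) against embryonic day (horizontal axis) for the 9 genes; solid lines are tested genes and broken lines those below the filter. Mylk and Acta2 already lie at 1.28 and 1.15 at E12.5, Tagln and Myh11 at 0.30, and Myl9 at -0.91.

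From E11.5 to E12.5, 2 of the 6 tested genes rose (Acta2 and Mylk, against 1.95% of all tested genes) and 1 fell (Myl9, against 1.32%). Their median log2 change was 0.37, and that of all tested genes was -0.01. Leaving out E12.5 replicate 2 ended all 3 calls, with log2 changes of 0.85, 1.12 and -0.87 and limma adjusted p of 0.0659, 0.0606 and 0.0592. Over the alternatives, the adjusted p ranged from 0.0019 to 0.171 for Acta2, from 0.000535 to 0.0606 for Mylk and from 0.00201 to 0.0592 for Myl9.

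From E12.5 to E14.5, 5 of the 6 rose (Acta2, Tagln, Myl9, Mylk and Myh11), against 3.53% of all tested genes, and 0 fell, against 1.73%. The median change was 1.38, against 0.03 over all tested genes. Myh11, counted here, passed the filter on low values through its later arrays, so its rise over the early stages was favoured by that filter. The comparison within a scanning day that spans this step, E16.5 against E12.5, in which stage and fluidics module cannot be told apart, called the same 5 genes upward, against 16.8% of all tested genes, and 0 downward, against 10.2%, with log2 changes of 0.88 for Myl9, 1.15 for Mylk, 1.81 for Acta2, 2.43 for Tagln and 2.51 for Myh11.

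From E14.5 to E16.5, 0 of the 6 passed in limma, against 10.8% of all tested genes in either direction (7.7% up and 3.12% down), and 1 had an unadjusted p below 0.05 (Myh11, log2 0.64, adjusted p 0.138). From E16.5 to E18.5, 0 passed and 0 had an unadjusted p below 0.05, against 0.0183% of all tested genes past the adjusted threshold. The median changes of the 6 were 0.06 and 0.20. From E14.5 to E18.5, 1 of the 6 rose (Myh11), against 6.95% of all tested genes, and 0 fell, against 3.18%. Myh11 passed the filter through its later arrays, which favoured such a rise. With no filter its limma adjusted p was 0.0553, which did not pass. An unadjusted limma p below 0.05 was seen for 2 of the 6 (Myh11 and Mylk).

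Over the whole period, E18.5 against E11.5, 4 of the 6 rose, against 17.1% of all tested genes (28.2% in either direction). Among the 4, Myh11 passed the filter through its later arrays, which favoured such a rise. The log2 changes were 3.10 for Acta2 (SE 0.19), 2.94 for Tagln (SE 0.21), 2.61 for Mylk (SE 0.22) and 3.21 for Myh11 (SE 0.27), each with limma adjusted p of 8.94e-07 or lower. Myl9 had a log2 of 0.25 (SE 0.15, adjusted p 0.243) and Smtn did not pass. The same 4 had risen by E14.5, against 8.81% of all tested genes, and 0 had fallen, against 5.82%.

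**Figure D4:**
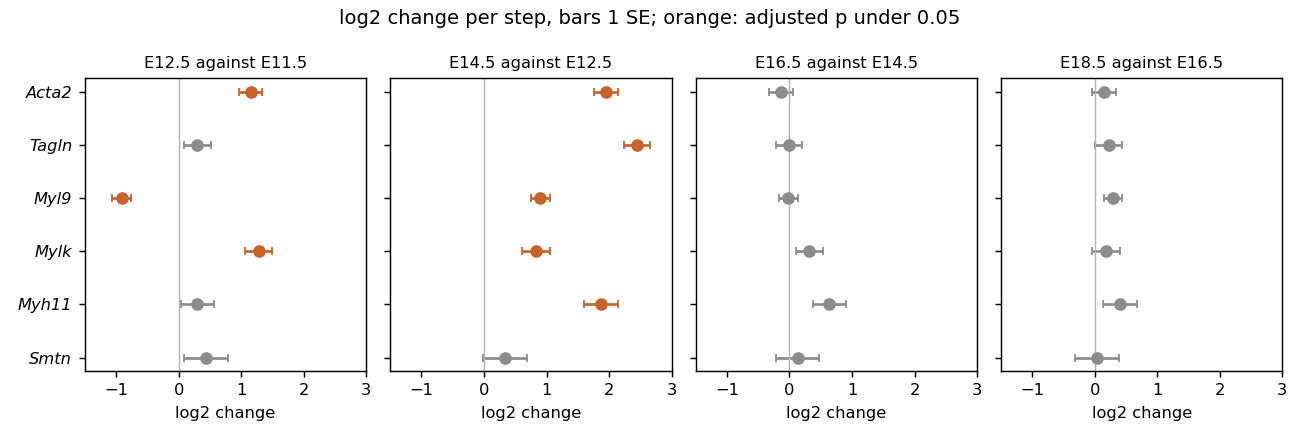
log2 change of the 6 tested genes (horizontal axis) in each step between neighbouring stages, with bars of 1 SE; orange points passed an adjusted p of 0.05. Of the 8 orange points, 3 lie in the first step and 5 in the second, and the last 2 panels have none.

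The other genes of smooth muscle structure included genes that rose and genes that fell. Of the 23 in this list, 20 were tested. From E12.5 to E14.5, 7 rose, 1 fell and 12 did not pass (median log2 0.38, against 0.03 over all tested genes), where 3.53% of all tested genes rose and 1.73% fell. Over the whole period 13 rose, 2 fell and 5 did not pass, where 17.1% of all tested genes rose. Pdlim3, which encodes a PDZ and LIM domain protein that binds alpha-actinin, was 8.1 and 29.3 for E11.5, 68.1 and 61.1 for E12.5, 778.9 and 562.0 for E14.5, 1624.7 and 1636.9 for E16.5, and 2312.3 and 1692.1 for E18.5. It rose in each of the first 3 steps, by log2 changes of 1.29, 3.07 and 1.28 (limma adjusted p 0.014, 1.74e-05 and 0.00867). The E11.5 arrays of Pdlim3 lay below the filter level, so it passed through its later arrays, which favoured these rises. Fhl1, a LIM domain protein of muscle, rose by 1.76 over the period (adjusted p 5.01e-06). Hspb1, a small heat shock protein that binds actin, rose by a log2 of 2.12 over the period (adjusted p 2.42e-06). Ppp1r14a, the inhibitor of myosin phosphatase called CPI-17, rose by 1.77 (adjusted p 3.89e-06). Itga8, an integrin chain, fell by 2.09 over the period (adjusted p 3.36e-06). Of the tropomyosin genes, Tpm2 rose from E12.5 to E14.5 (log2 1.24, adjusted p 0.00171), and Tpm1 rose from E11.5 to E14.5 (log2 0.85, adjusted p 0.00912) and then fell from E14.5 to E16.5 by 0.73 (adjusted p 0.0294).

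Among transcriptional regulators of smooth muscle, the share that changed from E12.5 to E14.5 was near that of all tested genes. Of the 20 in the list, 18 were tested, and from E12.5 to E14.5 1 rose (Fhl2), 0 fell and 17 did not pass (median log2 0.14, against 0.03 over all tested genes), where 3.53% of all tested genes rose and 1.73% fell. Fhl2, a LIM domain protein that binds serum response factor, rose by a log2 of 0.93 in that step (limma adjusted p 0.00567) and by 2.47 over the period (adjusted p 1.37e-07). Over the whole period 6 of the 18 regulators rose, 1 fell and 11 did not pass, where 17.1% of all tested genes rose and 28.2% changed. Srf, which encodes serum response factor, was 190.4 to 270.0 on the arrays of E11.5 to E14.5 and 144.4 to 210.0 later, and none of its changes passed. Myocd, which encodes myocardin, was 51.0 and 24.2 for E11.5, 97.7 and 91.4 for E12.5, 349.0 and 110.7 for E14.5, 70.0 and 77.2 for E16.5, and 64.7 and 60.2 for E18.5. Both E14.5 arrays lay above all the others, and replicate 1 lay far above replicate 2. Myocd rose by 2.05 from E11.5 to E14.5 (adjusted p 0.00211) and fell from E14.5 to E16.5 by 1.26 (adjusted p 0.0458), a step in which none of the 6 contractile genes passed. Klf4, a repressor of smooth muscle genes in vascular cells, rose by 1.28 in that step (adjusted p 0.00387), and Gata6 fell by 0.96 from E11.5 to E12.5 (adjusted p 0.0119). Mef2a, a muscle transcription factor, rose by 1.07 over the period (adjusted p 0.000594).

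Of 20 genes that signal contraction or relaxation, 6 were tested, and over the period 3 rose, 0 fell and 3 did not pass, where 17.1% of all tested genes rose. Agtr2, an angiotensin II receptor, was 19.4 and 40.2 for E11.5 and 754.3 and 716.1 for E18.5, a log2 rise of 4.07 (limma adjusted p 4.54e-08). Its E11.5 arrays lay below the filter level, so it passed through its later arrays, which favoured such a rise. Its rise from E14.5 to E18.5 was 2.61 (adjusted p 2.88e-05), where Acta2 had a log2 change of 0.00 and Tagln of 0.20; these differences between genes were not tested. Gucy1a1, a subunit of the nitric oxide receptor, rose by 1.57 from E11.5 to E14.5 (adjusted p 0.000161) and fell by 0.74 from E14.5 to E18.5 (adjusted p 0.0384). Ednrb, an endothelin receptor, changed over the stages (F test adjusted p 0.0427) but not from its first to its last level (log2 -0.06). All 9 non-muscle actin and myosin genes in the list were tested. From E12.5 to E14.5, 0 changed in limma (1 had an unadjusted p below 0.05), a count near the 3.53% up and 1.73% down of all tested genes. Over the period 1 rose and 3 fell (median log2 -0.33), where 28.2% of all tested genes changed. Actb, the beta-actin of all cells, fell by 1.25 over the period (adjusted p 0.00242) and Actg1, the cytoplasmic gamma-actin, by 0.64 (adjusted p 0.00672). The Actb signal was 7223.6 and 3919.2 for E14.5, where the 3′ to 5′ ratio of beta-actin was 1.64 and 2.5. For E18.5 it was 3225.8 and 3541.0, at ratios of 1.87 and 2.62. The part of RNA integrity in the fall of Actb was not tested. Myh10, a non-muscle myosin heavy chain, fell by 0.63 (adjusted p 0.00805) and Myl6, a myosin light chain of smooth and non-muscle cells, rose by 0.68 (adjusted p 0.0244).

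Of 15 genes of the interstitial and peritubular progenitors 10 were tested. From E11.5 to E12.5, 5 rose, 0 fell and 5 did not pass (median log2 0.99), where 1.95% of all tested genes rose. Another 2 and 3 calls, all upward, were made in the next 2 steps, where 3.53% and 7.7% of all tested genes rose. Ptch1 and Hhip, which respond to the hedgehog signal of Sertoli cells, rose by log2 changes of 1.80 and 2.17 (limma adjusted p 5.16e-05 and 0.000151). Hhip lay below the filter level at E11.5 and passed through its later arrays, which favoured its rise. Dcn, the matrix proteoglycan decorin, and Igf1, a growth factor of stromal cells, rose by 3.03 and 2.37 over the period (adjusted p 2.74e-08 and 3.6e-07). Dcn gained 1.00 in the first step and 1.37 in the next (adjusted p 0.00452 and 0.000397), and Igf1 had -0.28 in the first (adjusted p 0.531) and rose by 1.11 in the next (adjusted p 0.00248). Acta2 and Mylk rose from E11.5 to E12.5 and Tagln and Myh11 did not pass.

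Markers of other muscle-bearing cells moved too, and their part in the results was not tested. The 14 striated muscle genes had a summed signal of 1000.4 to 1144.3 at E11.5, 892.2 to 1082.9 at E12.5, 1348.9 to 1476.6 at E14.5, 700.7 to 773.1 at E16.5 and 663.8 to 722.5 at E18.5. Of the 6 tested, 4 rose from E12.5 to E14.5 and 1 fell (Tnni1), and from E14.5 to E16.5 3 fell (Actc1, Myh3 and Mylpf, by 1.40, 0.85 and 1.27). Over all tested genes 3.53% rose and 1.73% fell in the first of these steps and 3.12% fell in the next. The 9 smooth muscle genes summed to 7746.0 and 7844.1 for E14.5 and to 7634.0 and 7718.9 for E16.5, a sum that is mostly Acta2 and Myl9. None of the 14 striated muscle genes was listed at 0 on any array, and the striated muscle regulators Myod1 and Myog were at 9.4 to 34.3 and 6.1 to 37.2.

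The 10 pericyte and vascular smooth muscle genes summed to 1087.1 to 1330.9 at E11.5, 1025.2 to 1129.2 at E12.5, 1659.1 to 1709.1 at E14.5, 2259.8 to 2479.4 at E16.5 and 2080.8 to 2364.4 at E18.5, with none listed at 0. Of the 8 tested, 2 rose from E12.5 to E14.5 (Heyl and Pdgfrb) and 3 from E14.5 to E16.5 (Abcc9, Mcam and Rgs5), where 3.53% and 7.7% of all tested genes rose. Rgs5, a regulator of G protein signalling typical of pericytes, fell by 1.32 from E11.5 to E12.5 (limma adjusted p 0.00245) and rose by 1.37 from E14.5 to E16.5 (adjusted p 0.00168). Of 12 duct and nephric genes, 11 had a probe set, and they summed to 2050.7 to 2542.3 at E11.5, 1452.2 to 1515.3 at E12.5, 1085.0 to 1251.8 at E14.5, 829.7 to 886.6 at E16.5 and 867.6 to 878.7 at E18.5. None was listed at 0, and Gata3 lay at 1.8 to 5.6 on all arrays. Most of this difference came from 1 gene, Emx2, whose mean was 1347.1 at E11.5 and 97.7 at E18.5. Of the 5 tested, Emx2 fell by 3.56 over the period (limma adjusted p 2.99e-08), Krt18 fell by 0.81 (adjusted p 0.00207), Osr1 rose by 2.58 (adjusted p 9.55e-05) and 2 did not pass, where 28.2% of all tested genes changed. Osr1 passed the filter through its later arrays, which favoured its rise. A sum weights each gene by its probe set's brightness, and that of the contractile genes is mostly Acta2 and Myl9.

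**Figure D5:**
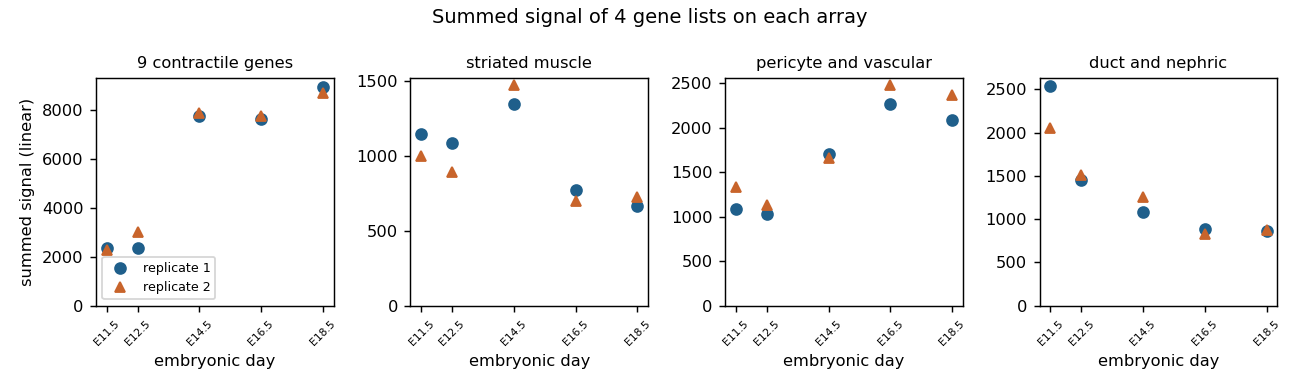
Summed linear signal (vertical axes, from 0, own scale for each list) of 4 gene lists on each array against embryonic day; circles and triangles are replicates 1 and 2. The contractile genes reach 7746.0 and 7844.1 for E14.5 and stay near that level, the striated muscle sum is highest at E14.5 and the pericyte and vascular sum at E16.5, and the duct and nephric sum goes down with Emx2 (1347.1 to 97.7).

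Likeness of pattern was described by Pearson's r over the 10 arrays, among which stage differences make many genes alike. Among the members, Acta2 had an r of 0.971 with Tagln, 0.952 with Mylk and 0.920 with Myh11, but 0.406 with Myl9 and 0.330 with Des. Outside the members, the closest genes to Acta2 were Zfp9 (0.987), Fbln5 (0.985), which encodes an elastic fibre protein, and Ampd3 (0.983). The closest to Mylk were Tm4sf1 (0.994), Itgb8 (0.993) and Lox (0.990), the enzyme that cross-links collagen and elastin. For Tagln they were the steroid synthesis genes Hsd3b1 (0.995) and Cyp17a1 (0.990), and Hao2 (0.989), all of which had signals at E14.5 far above those at E12.5. For Myh11 they were Ndrg2 (0.985), Acsbg1 (0.982) and Inafm1 (0.980). Myl9 was closest to Ilvbl (0.951), Zfyve1 (0.932) and Taf7l (0.923), and each of these had its lowest mean at E12.5. For the members with low or scattered signal the closest genes were Spryd3 (0.964), Esyt1 (0.960) and Aqp1 (0.959) for Cnn1, and Cep152 (0.975), Bmp6 (0.975) and Tbxa2r (0.974) for Actg2. For Smtn they were Rab8b (0.967), Maged1 (0.942) and Ddx6 (0.932), and for Des Lysmd4 (0.932), Cd302 (0.857) and Hopx (0.845).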

How the data were processed

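Each array's deposited column gives linear intensities, 1 for each of 45101 probe sets. The authors had scaled each column to 1 level, since the mean without the lowest and highest 2% was 125.0 on every array; no source used here names their software. The deposited scanner files were read for array type, scanning day and fluidics module. Gene names came from the platform annotation and were updated through Entrez numbers to RefSeq symbols (GRCm38.p6, names only): 34945 had 1 symbol, 932 several and 9224 none.

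After log2(signal + 16), the 10916 genes at or above the 40th percentile of mean log2 were kept. Means for the 5 stages were estimated over all 10 arrays with limma 3.58.1 (R 4.3.3; lmFit, eBayes with trend, 5 residual and 8.59 prior degrees of freedom), with two-sided tests, Benjamini-Hochberg adjustment over all tested genes and a threshold of 0.05. The procedure was tested on simulated data with independent noise and changes added only to genes well above the filter. That did not cover scanning day, fluidics module or genes near the filter. Members and gene lists were chosen with earlier results of these data known. All members were named; other lists contributed up to 4 genes with the smallest F test p, and the 3 genes with the highest r to each member. Srf, Myocd, Tpm1, Tpm2, Ppp1r14a, Pdgfrb, Myod1, Myog and Gata3, outside that rule, were chosen after their values were seen. Alternatives changed the pseudocount, filter, normalization, probe sets, block, stages fitted and arrays.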

Additional observations from a re-analysis of the deposited data

How the results depend on the processing

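The counts of contractile genes past the threshold stayed within 1.5 times under most alternatives. Without E12.5 replicate 2 the count from E11.5 to E12.5 went from 3 to 0 (range without 1 array 0 to 3). From E14.5 to E16.5 it was 1 in place of 0 with a pseudocount of 64 or only the stages compared. From E14.5 to E18.5 it was 0 in place of 1 with a pseudocount of 1 or no filter. It was also 0 with the 60th percentile filter or the mean of probe sets, under both of which Myh11 was not tested. The midpoint day was 13.49 for Acta2 without _x_at and _s_at probe sets, 13.62, 14.19 and 13.64 for Myh11 with pseudocounts of 1 and 64 and the mean of probe sets, 16.06 for Des with the mean of probe sets, and 13.93 and 14.00 for Actg2 with a pseudocount of 64 and quantile normalization. Without 1 array it ranged from 12.63 to 13.12 for Acta2, 13.68 to 13.94 for Myl9, 13.79 to 15.61 for Cnn1, 12.00 to 17.23 for Des and 12.15 to 16.61 for Smtn. Where no reason is given, the cause was not tested. Of 1008 single fold changes, 977 kept their side of the threshold, 20 lost a call, 11 gained one and 0 called ones turned; Myl9 from E11.5 to E18.5 gained its call with quantile normalization (log2 0.44, limma adjusted p 0.0429).

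Replicate numbers were not shown to pair the arrays: same-numbered deviations correlated at 0.004 to 0.366 between stages. With the replicate number as a block, the count over the 5 stages was 6 in place of 5, E18.5 and E14.5 against E11.5 gave 5 in place of 4 through Smtn, and E12.5 against E11.5 gave 3. The block for fluidics module was chosen after seeing the data. Within E11.5 to E14.5, and within E16.5 and E18.5, module and replicate number divide the arrays alike, so the blocks are not separate checks. Only 2 arrays per stage limit the precision, and signals near the floor limit Cnn1, Des and Actg2.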
